A study of Mus musculus with 8 samples.

Results

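Wnt pathway genes were located in 2 lists of chromatin regions whose H3K27ac signal differed by 2-fold or more between Nrip1 KO and control primary mouse myotubes, 1 list for regions increased in KO and 1 for regions decreased. The 47 genes, of 21938 protein-coding genes in the annotation, were chosen by name, with earlier results of these data known. They comprised 14 Wnt ligands, 15 receptors and co-receptors, 5 R-spondins and their Lgr receptors, 7 secreted inhibitors and 6 nuclear or feedback genes. A region was tied to a gene in either of 2 ways. Of the 11179 regions on chromosomes, 42 had a Wnt pathway gene as the protein-coding gene whose transcript start lay nearest to the centre of the region (nearest regions), and 66 were centred within 100 kb of a start of such a gene. These sets shared 34 regions and held 74 together.

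H3K27ac is the acetyl mark on lysine 27 of histone H3 found at active promoters and enhancers, and CUT&RUN maps it by guiding a nuclease with an antibody to the chromatin that carries it. Per the labels, 8 libraries fell into 4 groups of 2, namely H3K27ac and IgG from Nrip1KO and from Ctrl myotubes. Both genotypes were grown the same way, as satellite cells of the gastrocnemius muscle differentiated into myotubes for 4 days. The introduction names the striated-muscle KO line as the source of the cells, while the methods also describe a myogenin-Cre line. Striated-muscle KO mice carried Nrip1 fl/fl alleles (C57BL/6J) and a Cre recombinase bred in from C57BL/6JN mice. The Cre was driven by the muscle creatine kinase promoter, which is active in striated muscle, whereas controls were Cre-negative littermates. Nuclei were pooled before they were divided between antibodies, and the methods give an age of 8 to 16 weeks and either sex for mice of the study in general, without naming those of the cultures. Nrip1 encodes RIP140, a nuclear receptor coregulator. The lists hold positions alone, so neither the magnitude of a change nor its spread over replicates, the IgG background or the library depth is known, and no comparison below could be tested over samples. It also cannot be told whether a change came from more cells carrying the mark or from more mark per cell.

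Wnt proteins are secreted lipid-modified ligands that bind Frizzled receptors. In the canonical branch, a Frizzled and an Lrp5 or Lrp6 co-receptor together stop the destruction of β-catenin, which enters the nucleus and joins DNA-bound TCF/LEF factors at target genes. Other branches, many of them through Ror and Ryk receptors, act on cell polarity and movement. R-spondins strengthen the signal through Lgr receptors, while Dickkopf, Sfrp and Wif proteins block it outside the cell. In skeletal muscle, Wnt signalling is known for its parts in myogenic commitment, satellite cell expansion, fibrosis and the clustering of acetylcholine receptors at the neuromuscular junction.

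The regions centred closest to Wnt pathway genes are shown by sequence first. Within 10 kb of a member start there were 7 nearest regions, 5 of them increased and 2 decreased. Stretches of 240 bases from 6 of them are given from the plus strand of GRCm38.p6 (the same assembly as mm10), and capitals mark matches on either strand to the letters of 5 motifs. These were CTTTGAT for TCF/LEF factors, CAGCTG for the E-box bound by myogenic factors such as MyoD and CATTCC for TEAD factors. The others were TGANTCA for AP-1 and a loose form of the MEF2 motif. That form was 10 letters long, began with CTA and ended with TAG. Any base was allowed between these ends, so a match need not be a MEF2 site. In the Wnt2b stretch a TCF/LEF match in reverse (ATCAAAG) abuts a TEAD match, and 2 E-boxes lie end to end.

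Wnt2b, increased, chr3:104967687-104967926: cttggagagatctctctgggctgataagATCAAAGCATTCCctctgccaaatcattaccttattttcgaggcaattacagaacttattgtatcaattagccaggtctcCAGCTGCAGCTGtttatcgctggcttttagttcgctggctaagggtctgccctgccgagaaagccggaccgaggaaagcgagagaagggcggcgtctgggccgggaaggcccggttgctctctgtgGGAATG
Wnt10a, decreased, chr1:74790229-74790468: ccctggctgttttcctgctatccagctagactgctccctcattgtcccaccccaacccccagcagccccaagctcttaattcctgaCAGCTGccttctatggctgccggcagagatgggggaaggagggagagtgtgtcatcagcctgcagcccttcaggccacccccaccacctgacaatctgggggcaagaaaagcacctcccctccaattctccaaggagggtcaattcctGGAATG
Wnt16, increased, chr6:22283141-22283380: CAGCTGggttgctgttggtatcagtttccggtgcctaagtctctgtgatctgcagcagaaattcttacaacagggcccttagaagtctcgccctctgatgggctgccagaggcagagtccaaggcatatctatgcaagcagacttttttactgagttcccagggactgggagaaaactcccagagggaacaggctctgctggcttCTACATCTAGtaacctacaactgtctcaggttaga
Lgr5, increased, chr10:115586131-115586370: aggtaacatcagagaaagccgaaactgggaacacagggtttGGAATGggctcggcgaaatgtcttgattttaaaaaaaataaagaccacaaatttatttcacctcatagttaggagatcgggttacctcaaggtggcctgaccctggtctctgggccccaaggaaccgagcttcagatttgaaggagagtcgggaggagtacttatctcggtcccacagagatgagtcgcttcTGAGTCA
Tcf7l1, increased, chr6:72673798-72674037: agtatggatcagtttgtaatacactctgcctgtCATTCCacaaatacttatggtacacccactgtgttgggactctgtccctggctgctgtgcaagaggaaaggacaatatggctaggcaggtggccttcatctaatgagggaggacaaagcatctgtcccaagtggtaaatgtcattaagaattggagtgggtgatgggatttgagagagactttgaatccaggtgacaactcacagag
Tcf7l1, decreased, chr6:72676841-72677080: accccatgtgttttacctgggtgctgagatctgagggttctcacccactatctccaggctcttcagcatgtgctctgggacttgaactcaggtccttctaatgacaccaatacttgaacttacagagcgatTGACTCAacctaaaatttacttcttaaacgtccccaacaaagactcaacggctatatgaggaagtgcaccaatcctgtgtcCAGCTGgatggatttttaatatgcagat

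The 2 Tcf7l1 stretches come from regions of opposite direction that lie 2070 bp apart. Of these 6 stretches, only that of Wnt2b holds a TCF/LEF match, and E-boxes stand in those of Wnt2b, Wnt10a, Wnt16 and the decreased Tcf7l1 region. In the 36 other nearest regions, TCF/LEF matches were found at 7 places. These are shown next with 17 bases on either side, and here capitals mark the TCF/LEF match alone.

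Wnt4 upstream, decreased, chr4:137231331-137231371: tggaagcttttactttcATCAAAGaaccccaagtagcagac
Wnt4 downstream, decreased, chr4:137315318-137315358: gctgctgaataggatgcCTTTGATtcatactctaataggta
Fzd7, decreased, chr1:59427413-59427453: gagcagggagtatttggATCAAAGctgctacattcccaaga
Rspo3 intron, increased, chr10:29525329-29525369: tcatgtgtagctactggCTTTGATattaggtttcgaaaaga
Rspo3 upstream, increased, chr10:29638854-29638894: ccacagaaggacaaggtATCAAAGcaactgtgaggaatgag
Ctnnb1 upstream, decreased, chr9:120864184-120864224: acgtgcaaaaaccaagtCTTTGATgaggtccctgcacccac
Tcf7l2 intron, decreased, chr19:55848748-55848788: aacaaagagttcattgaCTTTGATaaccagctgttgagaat

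Over the whole set, Wnt pathway genes carried regions of both directions in similar numbers of genes. At least 1 nearest increased region was found for 12 of 47 genes (25.5%) and at least 1 nearest decreased region for 10 (21.3%), compared with 10.6% and 17.8% of all protein-coding genes. Because the genes were chosen with earlier results of these data known, such comparisons describe the set and are not evidence that it differs. Regions of both directions were nearest to 3 genes, Fzd7, Ror1 and Tcf7l1 (6.38%, compared with 3.07% of all genes). Neither direction was found for 28 genes. By region, 17 of 42 were increased (40.5%), compared with 35.0% of all regions. When starts of all annotated genes competed, 7 increased and 4 decreased nearest regions were left, and among regions of at least 1 kb there were 7 and 9.

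Within 100 kb of a start, an increased region was found for 16 genes (34.0%) and a decreased region for 19 (40.4%), compared with 24.1% and 42.7% of all protein-coding genes. These windows held 27 increased and 39 decreased regions. Within 50 kb there were 19 of each direction, at 15 and 13 genes, so the larger number of decreased regions depended on the window. Shares of all genes were not computed for 50 kb, so these counts cannot be set beside them. By nearest start and within 100 kb, the decreased shares lay close to those of all genes, and the increased shares above them. The median stretch of chromosome closer to a start of the gene than to that of any other protein-coding gene was 123.6 kb for Wnt pathway genes and 45.03 kb for all protein-coding genes, and 182.6 kb for those members with a nearest region. The part of this spacing in the counts was not tested.

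Directions in the lists were unevenly spread over chromosomes, and 9 of the 47 genes lay on the 4 chromosomes whose share of increased regions was furthest from the 35.0% of all regions, leaving aside the Y chromosome with its single region. Increased regions made up 7.53% of the regions on chromosome 4 (Wnt4, Ror1, Rspo1), 97.7% on chromosome 7 (Wnt11, Fzd4, Dkk3) and 69.1% on chromosome 10 (Rspo3, Lgr5, Wif1), and chromosome 16, with 7.80%, held no member. Without these chromosomes, 8 of 38 genes had a nearest increased region and 8 a nearest decreased region (21.1% each), compared with 9.63% and 18.3% of all genes there. Of the 29 nearest regions that remained, 9 were increased (31.0%), compared with 30.2% of all regions there. Within 100 kb, 9 of 38 genes had an increased region (23.7%) and 16 a decreased region (42.1%), compared with 21.2% and 44.7%. The deleted gene, Nrip1 on chromosome 16, overlapped 2 decreased regions and no increased region, on a chromosome where decreased regions prevailed, so it gave little information on direction. Myotube and other cell type markers cannot be checked by level in lists of differences.

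**Figure D1:**
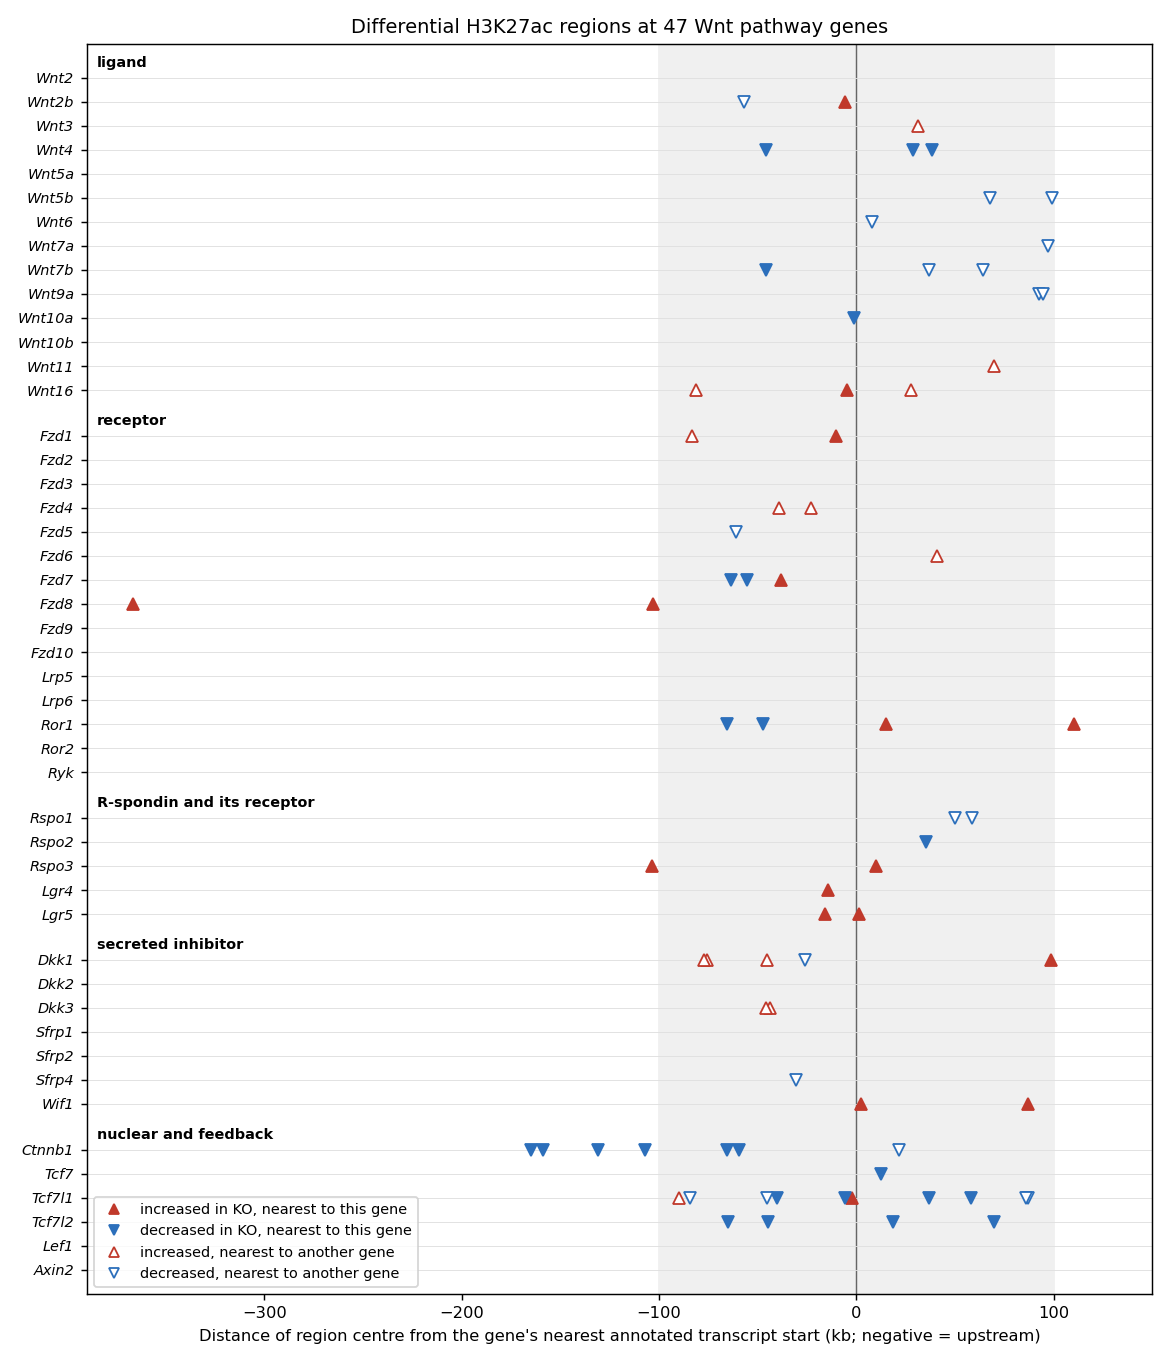
Positions of all differential H3K27ac regions tied to the 47 Wnt pathway genes, grouped by role. The x axis gives the distance in kb from the centre of a region to the nearest transcript start of the gene, negative values lie upstream, and the grey band spans 100 kb on either side. Upward red triangles are regions increased in KO and downward blue triangles regions decreased in KO, filled where the gene is the nearest protein-coding gene (42 regions) and open where another gene is nearer. Decreased regions are gathered at Ctnnb1, Tcf7l1 and Tcf7l2, and Rspo3, Lgr5 and Wif1 have 2 nearest increased regions each.

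Of the 14 Wnt ligands, 2 had a nearest increased region, Wnt2b and Wnt16, and 3 had nearest decreased regions, Wnt4, Wnt7b and Wnt10a. No ligand had both. These counts were near the shares of all protein-coding genes, 10.6% and 17.8%. Within 100 kb of a start the split was 4 ligands with an increased and 8 with a decreased region, and the regions numbered 6 and 13. Of all protein-coding genes, 24.1% and 42.7% had such regions. Wnt2, Wnt5a and Wnt10b had no region in either sense.

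Wnt16 is a ligand known from bone. The study had already singled it out from the same regions together with muscle RNA data, so its direction here is not independent evidence. The paper also reported higher Wnt16 mRNA in KO myotubes. In C2C12 myotubes it found overexpressed, tagged RIP140 bound at the Wnt16 region. Wnt16 had its nearest region 4894 bp upstream of the start (chr6:22282843-22283824, 982 bp, intergenic, GC content 50.5%). The locus carried more of the same direction. A broader increased region of 1800 bp lay 81433 bp upstream in an intron of Cped1 (chr6:22205895-22207694), and another of 2681 bp lay 27504 bp downstream in an intron of Fam3c (chr6:22315025-22317705), whose start was nearer at 13091 bp. All 3 regions within 100 kb were therefore increased, and within 1 Mb of the gene there were 7 increased regions and 0 decreased. Increased regions made up 31.3% of those on chromosome 6.

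Wnt2b, a ligand of the canonical branch, had an increased region 5869 bp upstream (chr3:104967540-104968040, 501 bp, intergenic). It had the highest GC content of the 17 increased regions nearest to members, 57.1%. A decreased region of 630 bp lay 56908 bp upstream, in an intron of Cttnbp2nl (chr3:105018515-105019144), so the direction changed with distance from the gene.

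Wnt10a, known for its part in skin appendages and teeth, had the decreased region closest to any member start. Its 626 bp (chr1:74790020-74790645) were centred 1184 bp upstream, with the nearer edge 871 bp from the start. The same region lay 7893 bp downstream of a start of Wnt6, the neighbouring ligand gene, which had no other region. Which of these genes, if either, the region acts on is not given by position.

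Wnt4, known for its part in kidney and gonad development, was the ligand with the most nearest regions, all of them decreased. A region of 501 bp lay 45933 bp upstream (chr4:137231306-137231806) and 2 lay downstream, at 28710 bp (chr4:137305883-137306515, 633 bp) and 38400 bp (chr4:137314776-137317002, 2227 bp). All 3 were intergenic. Within 1 Mb of Wnt4 there were 1 increased and 22 decreased regions, on the chromosome where 7.53% were increased.

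Wnt7b had only decreased regions as well, on a chromosome (15) where 26.4% of regions were increased. The region with Wnt7b as its nearest gene lay 46074 bp upstream (chr15:85627853-85629241, 1389 bp, intergenic). Another 2, nearer to another gene, lay 36820 bp (chr15:85529304-85531101, 1798 bp, intergenic) and 64316 bp downstream (chr15:85502456-85502956, 501 bp), the latter 521 bp from the start of 7530416G11Rik.

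The remaining ligands had regions only within 100 kb and always closer to another gene. Wnt7a, which drives symmetric expansion of satellite cells, had a decreased region 97155 bp downstream, in an intron of Fbln2 (chr6:91267424-91268409, 986 bp). Wnt5b, a ligand of the non-canonical branch, had decreased regions 67783 bp downstream in an intron of Adipor2 (chr6:119381262-119381945, 684 bp) and 99148 bp downstream in an untranslated part of Cacna2d4 (chr6:119349567-119350910, 1344 bp). For Wnt9a, 2 decreased intergenic regions at 92509 bp (chr11:59399189-59399689, 501 bp) and 94490 bp downstream (chr11:59401079-59401761, 683 bp) were nearer to Prss38.

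Increased regions of this kind were found for 2 further ligands. At Wnt3, a canonical ligand, a region of 1297 bp lay 30960 bp downstream within an intron of Wnt3 itself (chr11:103804462-103805758), although the start of Nsf was nearer at 18990 bp. Increased regions were uncommon there, with 16.2% on chromosome 11. At Wnt11, another ligand of the non-canonical branch, a region of 501 bp lay 69771 bp downstream in an intron of Uvrag (chr7:98917327-98917827), on the chromosome where 97.7% of regions were increased.

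**Figure D2:**
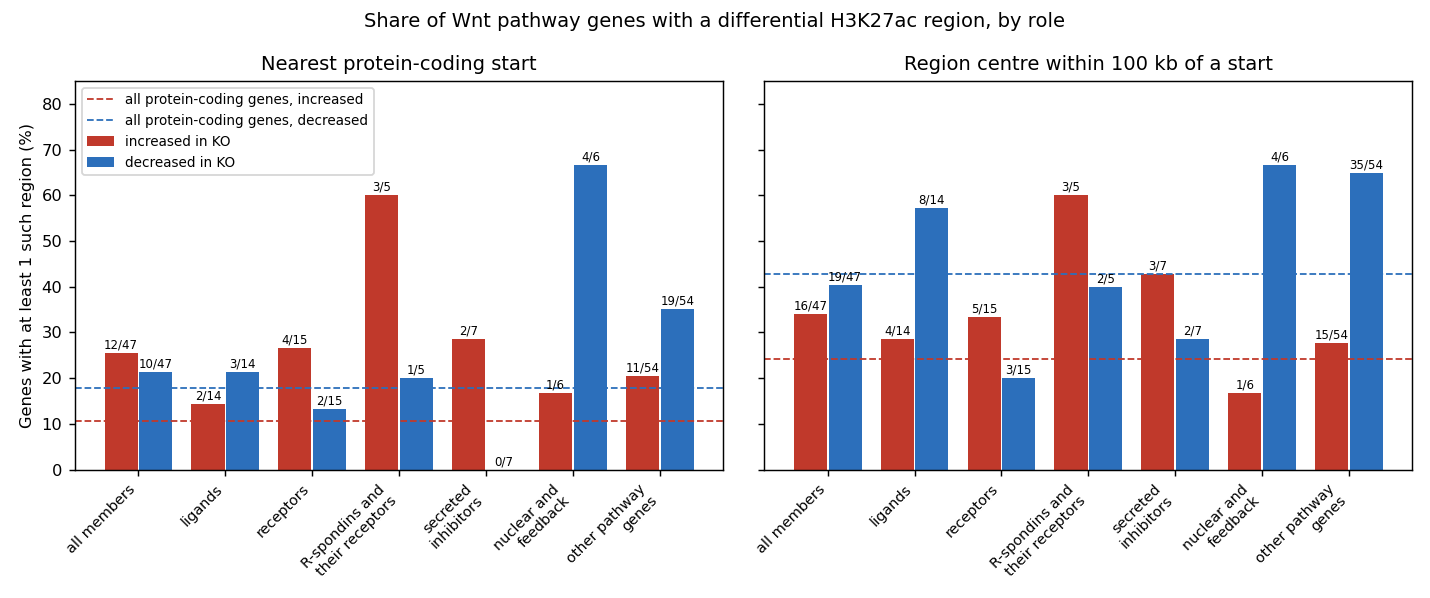
Share of genes in each role with at least 1 differential region, by nearest protein-coding start (left) and by a region centred within 100 kb of a start (right). The y axis is the percentage of genes, red bars are increased and blue bars decreased in KO, fractions above the bars give genes with a region over genes in the role, and dashed lines give the shares of all 21938 protein-coding genes (10.6% and 17.8% on the left, 24.1% and 42.7% on the right). The nuclear and feedback genes have the highest decreased bar (4 of 6) and the R-spondin arm the highest increased bar (3 of 5).

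Among 15 receptors and co-receptors, 4 had a nearest increased region (Fzd1, Fzd7, Fzd8 and Ror1) and 2 of these, Fzd7 and Ror1, also had nearest decreased regions. Over all protein-coding genes the shares were 10.6% and 17.8%. Within 100 kb the counts were 5 genes with 7 increased regions and 3 genes with 5 decreased regions, compared with 24.1% and 42.7% of all genes. For 8 receptors, Fzd2, Fzd3, Fzd9, Fzd10, Lrp5, Lrp6, Ror2 and Ryk, no region was found in either sense. Both Lrp co-receptors of the canonical branch were thus without a differential region.

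Fzd7, the Frizzled through which Wnt7a acts on satellite cells, had decreased and increased regions in order along its upstream side. Decreased regions lay 63486 bp (chr1:59418127-59419750, 1624 bp) and 55358 bp upstream (chr1:59426422-59427710, 1289 bp). An increased region of 1314 bp lay closer to the gene, 38153 bp upstream (chr1:59443615-59444928). The gap between the inner decreased region and the increased region was 15904 bp, and all 3 were intergenic.

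Ror1, a receptor with a kinase-like domain that binds Wnt5a, showed the same order over a longer distance. Its decreased regions lay upstream at 65502 bp (chr4:100028521-100032058) and 47242 bp (chr4:100048216-100048882, 667 bp), and the first, at 3538 bp, was the widest nearest to any member. Its increased regions lay inside the gene, in introns 15006 bp (chr4:100110547-100111047, 501 bp) and 110425 bp downstream of the start (chr4:100205649-100206783, 1135 bp). Within 1 Mb there were 2 increased and 14 decreased regions, so the increased regions there were those within Ror1.

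Increased regions alone were found for Fzd1 and Fzd8 by nearest start. At Fzd1, a region of 1083 bp lay 10384 bp upstream (chr5:4767878-4768960, intergenic) and a second of 501 bp lay 83586 bp upstream in an intron of Cdk14 (chr5:4841371-4841871). The regions of Fzd8, the receptor gene with the widest gap to its neighbours (686.1 kb closer to it than to any other protein-coding gene), lay 366816 bp (chr18:8844978-8845717, 740 bp) and 102889 bp upstream (chr18:9108653-9109896, 1244 bp). Neither was within 100 kb, and starts of genes not annotated as protein-coding lay closer, at 82888 and 9019 bp.

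For 3 other Frizzled genes, regions lay within 100 kb but closer to another gene. Fzd4, which also binds the non-Wnt ligand norrin, had increased regions 39240 bp (chr7:89364865-89365365, 501 bp) and 22956 bp upstream (chr7:89380715-89382083, 1369 bp), both in introns of Tmem135, with 39 increased and 0 decreased regions within 1 Mb. Fzd6 had an increased intergenic region 40845 bp downstream (chr15:39047910-39048554, 645 bp), nearer to Cthrc1. Fzd5 had a decreased region 60818 bp upstream in an intron of Plekhm3 (chr1:64798217-64798922, 706 bp).

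**Figure D3:**
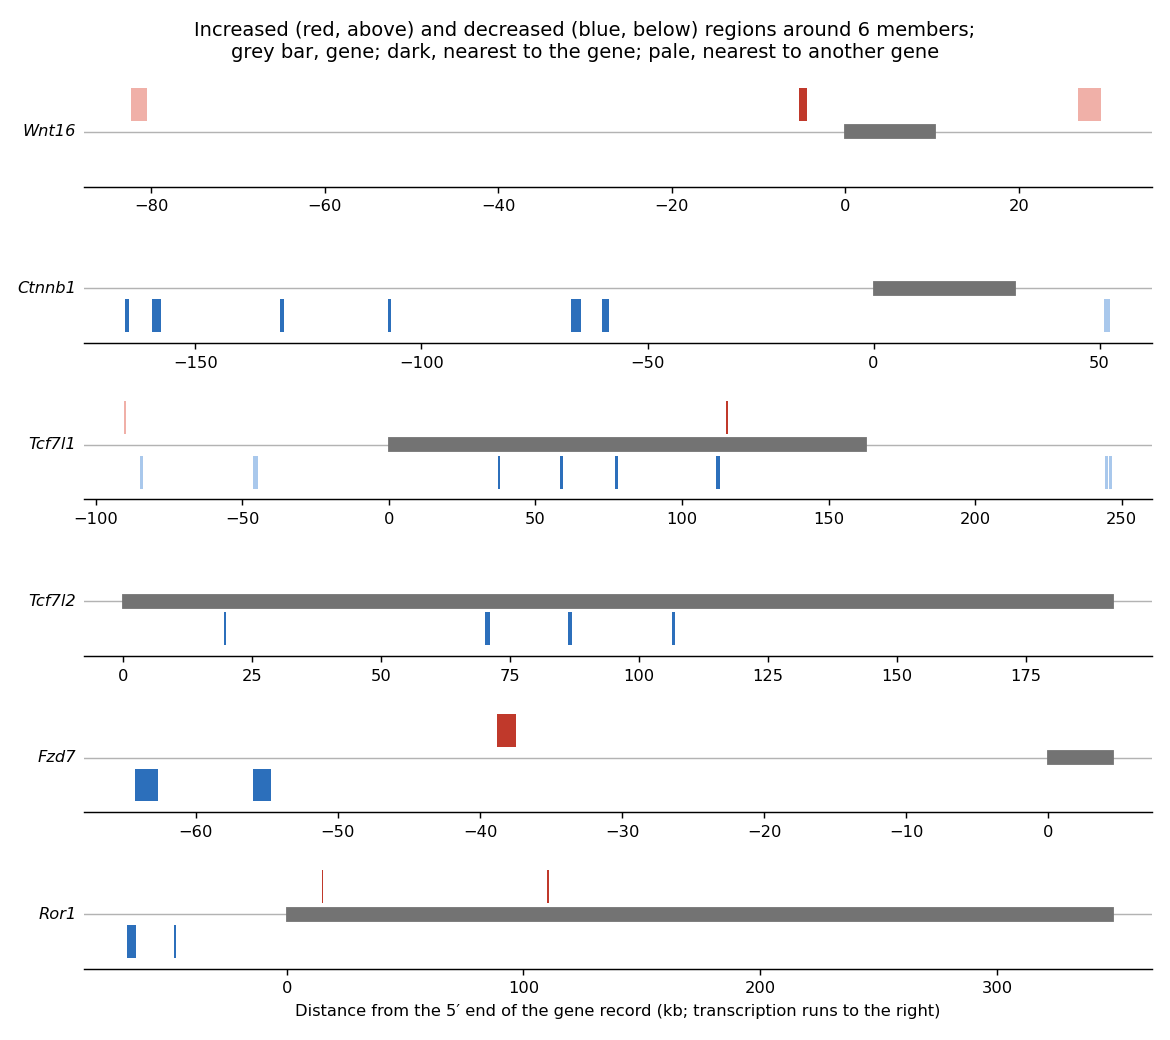
Maps of 6 Wnt pathway genes with their differential H3K27ac regions, drawn to scale within each row. The x axis gives the distance in kb from the 5′ end of the gene record with transcription to the right, the grey bar is the gene, red boxes above the line are increased and blue boxes below it decreased in KO, and pale boxes are nearest to another gene. Wnt16 has 3 increased regions and Tcf7l2 4 decreased regions, whereas the directions of Tcf7l1, Fzd7 and Ror1 are mixed.

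The R-spondins and their receptors were the role with the largest share of genes holding a nearest increased region. A nearest increased region was found for 3 of 5 genes, Rspo3, Lgr4 and Lgr5, and a nearest decreased region for Rspo2. Over all protein-coding genes the shares were 10.6% and 17.8%. Of the 6 nearest regions 5 were increased, and of the 7 within 100 kb 4 were, compared with 35.0% of all regions. Rspo3 and Lgr5 lie on chromosome 10 and Rspo1 on chromosome 4, and without these chromosomes 1 increased region (Lgr4) and 1 decreased region (Rspo2) were left.

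Rspo3, an R-spondin known from blood vessels and intestinal crypts, had an increased intronic region of 1800 bp, 10016 bp downstream of its start (chr10:29524952-29526751). A second increased region, 103503 bp upstream (chr10:29638351-29640389, intergenic), was the widest of the increased regions nearest to members at 2039 bp. It also had the lowest GC content of them, 35.3%. Both regions contained a TCF/LEF match. Within 1 Mb there were 4 increased and 1 decreased regions.

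Lgr5, an R-spondin receptor and marker of intestinal stem cells, had increased regions within its gene. The first lay 1311 bp downstream of the nearest start and 1598 bp from the 5′ end of the gene record (chr10:115585932-115586432, 501 bp, intron). The second lay 16196 bp from the nearest start and 108505 bp from the 5′ end (chr10:115478818-115479732, 915 bp, intron). No decreased region lay within 100 kb.

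Lgr4, the broadly expressed relative of Lgr5, had an increased intronic region of 501 bp (chr2:109960706-109961206), 14586 bp from the nearest start and 43309 bp from the 5′ end. Within 1 Mb there were 8 increased and 1 decreased regions, whereas 24.4% of the regions on chromosome 2 were increased. Rspo2, an R-spondin known from limb development, had a decreased intronic region 35287 bp downstream of its nearest start (chr15:43135215-43135847, 633 bp). Rspo1 had decreased regions 49815 bp (chr4:125056715-125057875, 1161 bp) and 58348 bp downstream (chr4:125065441-125066215, 775 bp), which were nearer to Gnl2 and to Dnali1.

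No nearest decreased region was found for any of the 7 secreted inhibitors, and 2 of them, Dkk1 and Wif1, had 3 nearest increased regions. Of all genes, 10.6% held a nearest increased region. With 17.8% of all genes holding a nearest decreased region, 0 of 7 genes is near the share of all genes. Within 100 kb there were 8 increased and 2 decreased regions at 3 and 2 genes, compared with 24.1% and 42.7% of all genes. Without chromosomes 7 and 10 (Dkk3 and Wif1), the counts within 100 kb were 4 increased regions at 1 gene, Dkk1, and 2 decreased regions at 2 genes. Dkk2, Sfrp1 and Sfrp2 had no region in either sense.

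Wif1, which binds Wnt ligands in the extracellular space, had an increased region 2200 bp downstream of its nearest start, in an intron (1583 bp, joined from 2 peaks). A second increased region of 655 bp lay 87023 bp from the nearest start (chr10:121170451-121171105) and 136818 bp from the 5′ end of the gene, beyond its 3′ end. Within 1 Mb the directions were equal, with 3 increased and 3 decreased regions.

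Dkk1, which blocks the Lrp co-receptors, had its nearest increased region 98669 bp downstream (chr19:30450598-30451394, 797 bp, intergenic). Another 3 increased regions and 1 decreased region within 100 kb lay on the upstream side, in Prkg1, the gene of a cGMP-dependent kinase, and nearer to its starts. The decreased region was the closest to Dkk1, at 26257 bp (chr19:30575536-30576309, 774 bp). The increased regions lay at 45446 bp (chr19:30594793-30595429, 637 bp), 75602 bp (chr19:30624954-30625580, 627 bp) and 77235 bp (chr19:30626260-30627541, 1282 bp).

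The other inhibitors had regions closer to a neighbouring gene. Dkk3, a divergent Dickkopf protein, had increased intergenic regions 43762 bp (chr7:112202457-112203181, 725 bp) and 45632 bp upstream (chr7:112203804-112205575, 1772 bp), nearer to Mical2. On that chromosome 97.7% of regions were increased, and within 1 Mb of Dkk3 there were 41 increased and 0 decreased. Sfrp4, a secreted Frizzled-related protein, had a decreased region 30612 bp upstream, in an untranslated part of Epdr1 (chr13:19592023-19592962, 940 bp).

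The nuclear and feedback genes held 15 of the 25 nearest decreased regions, and within 100 kb 16 of the 39 decreased regions and 2 of the 27 increased. Of all regions, 35.0% were increased and the rest decreased. Nearest decreased regions were found for 4 of 6 genes, Ctnnb1, Tcf7, Tcf7l1 and Tcf7l2 (66.7%, compared with 17.8% of all genes). Within 100 kb, 4 genes had a decreased and 1 an increased region, compared with 42.7% and 24.1% of all genes. In the order named, 208.5, 62.22, 195.7 and 531.4 kb lay closer to these genes than to any other protein-coding gene. The median of all genes was 45.03 kb, and the part of this spacing in the counts was not tested. These counts rest on protein-coding starts. Starts of genes not annotated as protein-coding lay closer to every such region of Ctnnb1 and Tcf7, and to most of Tcf7l1 and Tcf7l2. When starts of all annotated genes competed, 4 of the 25 nearest decreased regions of members were left. A single increased region, at Tcf7l1, was nearest to a gene of this role. None of the 6 genes lies on chromosome 4, 7, 10 or 16. Lef1, the remaining TCF/LEF factor, and Axin2, a feedback inhibitor and common readout of canonical signalling, had no region in either sense.

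Ctnnb1, the gene of β-catenin, had 6 nearest regions, the most of any member, and all were decreased and upstream. They were centred at 59302 bp (chr9:120869164-120870664, 1501 bp), 65844 bp (chr9:120862339-120864406, 2068 bp), 107040 bp (chr9:120821819-120822534, 716 bp), 130822 bp (chr9:120797991-120798798, 808 bp), 158613 bp (chr9:120769709-120771498, 1790 bp) and 165066 bp (chr9:120763694-120764606, 913 bp) from the nearest start. None reached the gene itself, and the innermost was centred 32 bp from the start of Gm34425, a non-coding gene. A further decreased region lay downstream of the gene, 51649 bp from its 5′ end, in an intron of Ulk4 (chr9:120980222-120981509, 1288 bp). Within 1 Mb there were 1 increased and 20 decreased regions, and 27.3% of those on chromosome 9 were increased.

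Tcf7l2, a TCF factor also known in muscle as a marker of connective tissue fibroblasts, had 4 nearest regions, all decreased and all in its introns. Counted from the 5′ end of the gene they lay at 19696 bp (chr19:55761266-55761766, 501 bp), 70647 bp (chr19:55811972-55812963, 992 bp), 86554 bp (chr19:55828001-55828748, 748 bp) and 106653 bp (chr19:55848138-55848809, 672 bp). Within 1 Mb there were 0 increased and 15 decreased regions, while 38.7% of the regions on chromosome 19 were increased. Of 6 fibroblast marker genes (Pdgfra, Col1a1, Col3a1, Thy1, Dcn and Ly6a), Col3a1 and Dcn had nearest increased regions, 4 in number, and Col1a1 and Thy1 had nearest decreased regions, 3 in number. Of 4 myoblast markers, Pax7 on chromosome 4 had 8 nearest decreased regions and Myf5 had 1 increased. Of 3 endothelial markers, Cdh5 and Pecam1 had 5 and 1 nearest decreased regions and Kdr had 1 increased. Of 7 myotube markers Myh3 had 1 nearest increased region, and none of 3 Schwann cell markers had a nearest region. Within 100 kb, 3 myotube markers (Ckm, Tnnt3 and Myh3) had increased and 2 had decreased regions, compared with 24.1% and 42.7% of all genes. Increased and decreased regions lay within 100 kb of 2 and 3 myoblast, 1 and 3 fibroblast and 1 and 2 endothelial markers. For Schwann cell markers the counts were 0 and 2. Ckm, Tnnt3 and the myoblast marker Myod1 lie on chromosome 7, where 97.7% of regions were increased. Myf5 and Dcn lie on chromosome 10, where 69.1% were increased. Over all protein-coding genes, 10.6% had a nearest increased and 17.8% a nearest decreased region. The part of other cell types in these lists was not tested.

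Tcf7l1, the TCF factor that acts mainly as a repressor, had 4 nearest decreased regions and 1 increased region, all within the gene. From the 5′ end, decreased regions lay at 37607 bp (chr6:72751318-72751976, 659 bp), 58875 bp (chr6:72729994-72730764, 771 bp), 77740 bp (chr6:72711040-72711988, 949 bp) and 112293 bp (chr6:72676239-72677683, 1445 bp). The increased region followed at 115336 bp (chr6:72673668-72674168, 501 bp), 2514 bp upstream of the start of a shorter transcript. The gap of 2070 bp between it and the last decreased region was the smallest between nearest regions of any member. Both of these regions are among the printed sequences.

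Around Tcf7l1, 5 more regions lay within 100 kb, 4 of them decreased. On the downstream side, 2 decreased regions lay at the start of Capg, the gene of an actin-capping protein, 67 bp (chr6:72544059-72545149, 1091 bp) and 1282 bp from it (chr6:72542706-72543512, 807 bp). On the upstream side, decreased regions lay 45514 bp (chr6:72833824-72835712, 1889 bp) and 84266 bp (chr6:72873065-72873975, 911 bp) from Tcf7l1, and an increased region of 631 bp lay at 89942 bp (chr6:72878881-72879511), all nearer to Kcmf1. Tcf7, the third TCF factor with a region, had a decreased region of 501 bp, 12404 bp downstream of its nearest start (chr11:52269917-52270417) and 653 bp from the start of the non-coding gene Gm26551.

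The regions nearest to Wnt pathway genes were distal. None of the 17 increased and none of the 25 decreased regions was centred within 1 kb of a protein-coding start, compared with 12.5% of all increased and 8.44% of all decreased regions. Decreased regions near starts of genes not annotated as protein-coding, at most 1 kb away, numbered 3 and belonged to Ctnnb1, Tcf7 and Tcf7l1. Of the increased regions 8 were intronic and 9 intergenic, and of the other decreased regions 9 were intronic and 13 intergenic. The median distance to the start was 15006 bp for increased and 47242 bp for decreased regions, whereas over all regions it was 25062 and 17115 bp. By the median alone, decreased regions lay farther from Wnt pathway genes than increased regions, the reverse of the order in all regions. The most distant regions did not follow this order. The largest distance was 366816 bp for increased and 165066 bp for decreased regions. Over 100 kb away were 4 of 17 increased and 4 of 25 decreased regions, and in all regions this share was also larger for increased ones.

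Widths were similar to those in the whole lists. The median was 915 bp for increased regions (range 501 to 2039 bp) and 808 bp for decreased regions (range 501 to 3538 bp), compared with 777 and 863.5 bp over all regions. GC content differed by direction among the members' regions as it did in the whole lists. Its median was 43.3% for increased regions (range 35.3% to 57.1%) and 50.3% for decreased regions (range 43.8% to 57.0%), compared with 43.1% and 47.9% over all regions. The ranges overlapped. Among the 5 increased regions with the shortest width of 501 bp alone, GC content ran from 37.3% (Lgr4) to 57.1% (Wnt2b).

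**Figure D4:**
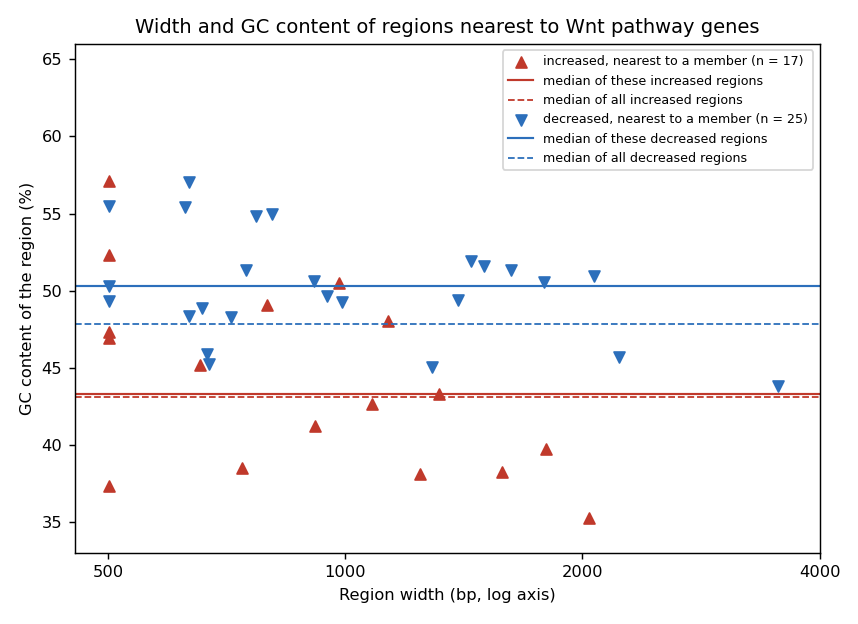
Width and GC content of the 42 regions nearest to Wnt pathway genes. The x axis is the width in bp on a log scale, the y axis the GC content in percent, red upward triangles are the 17 increased and blue downward triangles the 25 decreased regions, solid lines are their medians (43.3% and 50.3%) and dashed lines the medians of all regions of the same direction (43.1% and 47.9%). Below the lowest decreased region, at 43.8% GC, there are increased regions alone.

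Motif matches were counted on both strands, as descriptions of the sequence. The central 500 bp of a region held the TCF/LEF letters in 1 of 17 increased regions (5.88%) and 1 of 25 decreased regions (4.00%), compared with 8.32% and 6.66% of all regions. Over the whole width of the regions the shares were 17.6% and 20.0%, compared with 15.9% and 15.1%. The regions with a match belonged to Wnt2b and Rspo3 among increased ones and to Wnt4, Fzd7, Ctnnb1 and Tcf7l2 among decreased ones.

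TEAD letters were found over the whole width in 12 of 17 increased (70.6%) and 18 of 25 decreased regions (72.0%), compared with 47.0% and 46.9% of all regions. In the central 500 bp the shares were closer, 35.3% and 40.0% compared with 30.7% and 27.3%. Over the whole width, as for the motifs that follow, E-boxes were present in 8 increased (47.1%) and 18 decreased regions (72.0%). Of all regions, 44.1% and 57.4% held them. In the central 500 bp the shares were 29.4% and 44.0%, compared with 28.8% and 37.9%. The region of Ctnnb1 farthest from its start held 4 E-boxes. AP-1 letters, which can overlap a TCF/LEF match as they do in the downstream Wnt4 region, were found in 29.4% and 24.0%, compared with 36.8% and 33.3%. The loose form of the motif of MEF2, a muscle transcription factor, leaves its middle bases open. It was found in 6 of 17 and 4 of 25 regions, compared with 19.3% and 17.9% of all regions. For the nuclear receptor ERR (TCAAGGTCA) there was 1 match, in an intron of Tcf7l2, while 1.97% of all increased and 3.37% of all decreased regions held it. CCGGAAG, the letters of the ETS factor GABPA, were in none of the 42 regions, and in 4.57% and 5.19% of all regions. Both counts were near the shares of all regions.

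A further 54 genes of the pathway, listed by role, gave the context. Nearest increased regions were found for 11 (20.4%) and nearest decreased regions for 19 (35.2%), with 14 and 44 regions, compared with the 10.6% and 17.8% of all genes given above. Without chromosomes 4, 7, 10 and 16 the counts were 10 and 13 of 46 genes (21.7% and 28.3%), compared with 9.63% and 18.3% of all genes there. Within 100 kb, 15 genes had increased and 35 had decreased regions (27.8% and 64.8%, compared with 24.1% and 42.7%). None of the 5 further ligands had a nearest region.

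Whereas no region nearest to a member was centred within 1 kb of a protein-coding start, some of these genes had such regions. Decreased regions were centred 111 bp from a start of Sostdc1, a secreted inhibitor, 471 bp from Dvl1, a Dishevelled scaffold, and 10 bp from Prickle2 of the planar polarity branch. Increased regions were centred 258 bp from a start of Apc, a scaffold of the β-catenin destruction complex, and 781 bp from Gsk3a, a kinase of the complex on chromosome 7. Dvl3, another Dishevelled, had a decreased region at 3285 bp. Dvl1 lies on chromosome 4 and Dvl3 on chromosome 16, where 7.53% and 7.80% of regions were increased. Within 1 Mb there were 1 increased and 13 decreased regions at Dvl1, and 0 and 35 at Dvl3. Gsk3b, the relative of Gsk3a on chromosome 16 had 5 decreased regions, the nearest at 6261 bp.

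Tle3, a Groucho corepressor that binds TCF factors, had more nearest regions than any member or other pathway gene. It had 10 decreased regions, from 459 to 94369 bp away, and 1 increased region at 230048 bp. Other Groucho genes with a region near a start were Tle1 (decreased, 3813 bp) and Tle2 (decreased, 211 bp), on chromosomes 4 and 10. Wls, which carries Wnt ligands to the cell surface, had 3 decreased intronic regions at 6916, 15660 and 61672 bp.

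Among kinases and adaptors of the cytoplasm, Csnk1a1 had 2 increased regions (the nearer at 1103 bp) and 1 decreased region, Csnk1e a decreased region at 2526 bp and Nkd1, a Dishevelled antagonist, an increased region at 3813 bp. Fbxw11, part of the ligase that marks β-catenin for destruction, had 3 decreased regions, the nearest at 12603 bp. In the planar polarity branch, Vangl1 had 3 decreased regions (nearest 1296 bp), while Prickle1 and Daam1 had 3 regions each of mixed direction. Celsr2, a cadherin of that branch, had increased regions 9169 and 11523 bp downstream of a start, both nearer to Psrc1. Musk, the receptor kinase of the neuromuscular junction, was named after its values were seen, and had 2 decreased intronic regions at 26053 and 50329 bp on chromosome 4. Within 1 Mb of Musk there were 0 increased and 21 decreased regions, and 7.53% of those on chromosome 4 were increased. The paper instead described H3K27ac at Musk as unchanged in KO myotubes, where Musk mRNA was not increased. It reported higher Musk mRNA and protein in a fast-twitch muscle of KO mice.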

How the data were processed

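CUT&RUN for H3K27ac and IgG had been performed on myotubes of KO and control mice, with 2 replicates a group. Per the labels and methods, the authors aligned paired reads to mm10 with BWA-MEM2 (v2.2.1), called broad peaks with HOMER (v4.11) and kept regions differing by 2-fold or more. How replicates and IgG libraries entered these calls, and which of the 2 H3K27ac antibodies named in labels and methods was used, remained unclear. The deposited lists hold intervals and a score that the authors left at the same value in every region, so the score was not used. A fold threshold passes on differences in depth, reaction efficiency or DNA copy number between cultures.

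Regions were read as half-open intervals, counted from 1, and assigned by their centre to GENCODE M21 transcript starts with Python 3.11.15. A region was promoter-proximal within 1 kb of any annotated start, and otherwise classed by the base at its centre. The region on an unplaced sequence (1 of 11180) was left out, and the sequence of 1 region near a member start is not reported here. Every member was accounted for, and other pathway genes were named where they had 3 or more nearest regions or a region within 10 kb of a start. Members and lists were chosen with earlier results of these data known. No test was run, because the lists hold no value per library. Gene assignment was tested on simulated positions. Alternatives covered the starts used, the window, region edges, a minimum width, joining and the unbalanced chromosomes.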

Additional observations from a re-analysis of the deposited data

How the results depend on the processing

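When starts of all 55413 annotated genes competed for a region, nearest increased regions fell to 7 at 6 members and decreased to 4 at 4, with 1 member holding both, because starts of genes not annotated as protein-coding lay closer. With regions of at least 1 kb alone, 7 increased and 9 decreased regions were nearest to 6 and 6 members, and within 100 kb there were 10 and 14 regions at 9 and 8 members. Without chromosomes 4, 7, 10 and 16, 9 nearest increased regions remained, and 16 increased regions at 9 members within 100 kb. A window of 50 kb held 19 increased and 19 decreased regions at 15 and 13 members, against 27 and 39 regions at 16 and 19 members within 100 kb. A window of 200 kb held 58 increased regions at 25 members and 78 decreased regions at 23. Shares of all genes were not computed for the windows of 50 and 200 kb. With starts given by 1 end per gene, 24 increased and 29 decreased regions were nearest, against 17 and 25 with all starts. Within 100 kb that choice gave 24 and 32 regions. A limit of 100 kb on nearest regions left 13 and 21. Region edges gave 17 and 25 nearest regions, and 28 and 39 within 100 kb. Joining within 10 kb gave 17 and 21, and 25 and 32. TCF/LEF shares went from 5.88% and 4.00% in the central 500 bp to 17.6% and 20.0% over the whole width of regions, which by construction can only add matches. No paired analysis was possible because the lists hold no value per library, and for the same reason leaving out a replicate and setting a stricter threshold were not possible. Depth is unknown, so the absence of a region shows no more than that none was called.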
